A study of Mus musculus with 2 samples.

Results

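Tall compact peaks were 603 of the 8148 intervals listed for the KLF4 ChIP library, selected on peak height and interval width. Those with a height of at least 25 and a width under 2500 bp were taken. Height is the authors' score at the summit, the position of strongest signal within an interval, and its scale is named nowhere. Both values are readouts of the same library, so heights and widths are described here without a test. The 603 were 7.79% of the 7738 intervals under 2500 bp, and the other 7135, with heights below 25, served as the lower compact peaks for comparison. A height of 25 was also reached by 158 of the 410 broad intervals of 2500 bp or more, which are left out of the tall compact set.

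The list came from chromatin immunoprecipitation sequencing (ChIP-seq), in which fixed and sheared chromatin is pulled down with an antibody and the recovered DNA is sequenced. Cells were GFP-positive and double-positive for CD4 and CD8, sorted from bone marrow 4 weeks after transplantation in a mouse model of NOTCH1-induced T cell acute lymphoblastic leukaemia, or T-ALL. The mice carried floxed Klf4 and vav-Cre, a recombinase driven in blood cells, on a C57BL/6 background. The KLF4 library is labelled KLF-4 KO and an input library made without antibody is labelled Normal, while the strain entry of both is the same, so the genotype behind the peaks is not settled. Under the knockout label no intact KLF4 would be expected in these cells, so whether the listed regions were bound by KLF4 cannot be told from the labels. Values of the input library were not analysed here. With 1 KLF4 library there are no replicates. The tests across samples that would show a difference between sets of peaks could not be made, and the 95% exact binomial intervals given below cover counting error only. Depth of the library is unknown.

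KLF4 belongs to the Krüppel-like zinc finger proteins and binds GC-rich and CACCC-type elements, often in promoters and enhancers. In the T cell lineage it is known as a brake on proliferation, and the title of the study links its loss in T-ALL to the kinase Map2k7 and the JNK pathway. In ChIP-seq, a factor that contacts a short DNA element usually gives a compact peak, whereas chromatin marks and long stretches of bound chromatin give broad ones. Peaks are given by their position in mm9, a build named in the submitters' processing notes. Genes and sequences of that build were not used here, so no gene is assigned to a peak and no sequence is printed.

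Most tall compact peaks lay close to the height limit, and 5 stood far above the others. Heights had a median of 28 and quartiles of 26 and 32, against a median of 15 in the lower compact peaks. Heights of 25 to 29 were found in 383 members (63.5%), heights of 30 to 39 in 170 (28.2%) and heights of 40 to 60 in 45 (7.46%). The remaining 5 (0.829%) had heights of 114 to 180, and no member lay between 60 and 114. Height per kb of interval had a median of 17.7 in the group of 25 to 29, 19.3 in that of 30 to 39, 27.8 in that of 40 to 60 and 146 in the 5 tallest. Median widths were 1498, 1716, 1683 and 829 bp in the same order, and the 5 tallest ranged from 457 to 1770 bp. Height per kb uses the values that chose the members, and the groups overlapped in it, since the lowest of the 5 had 72.9 per kb and the highest of the group of 40 to 60 had 109.

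**Figure D1:**
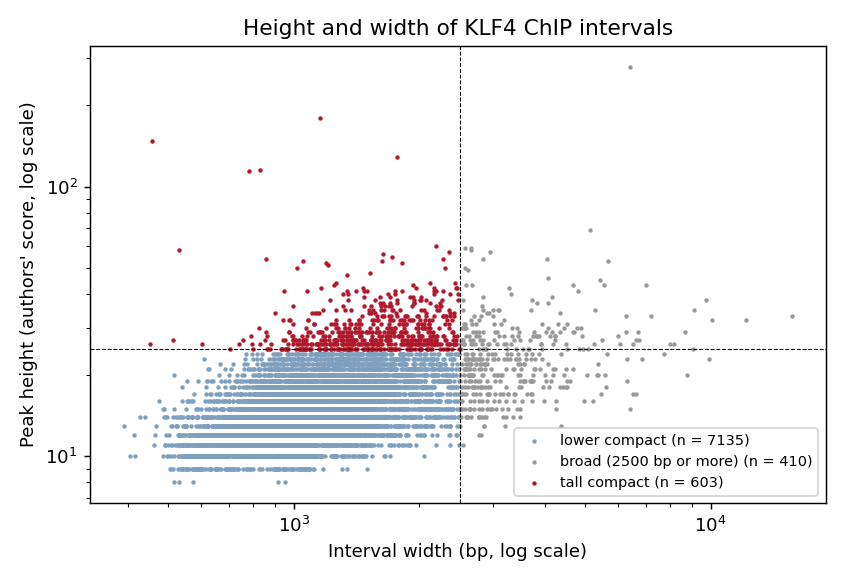
Each point is 1 interval, with its width in bp on the x axis and its height (the authors' score) on the y axis, both on log scales, and dashed lines at the limits of 25 and 2500 bp. The 5 tall compact peaks with heights of 114 to 180 stand apart from the other members, which reach 60.

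The tallest member, on chromosome 11 (108872504 to 108873657), reached 180 over 1154 bp. Its nearest other interval was 89.7 kb away and had a height of 12. A peak of 457 bp on chromosome 3 (5860487 to 5860943) reached 147. That is a height of 322 per kb, the highest of all 603 members, and its nearest interval lay 284 kb away with a height of 11. On chromosome 15 (74915832 to 74917601) the height was 129 over 1770 bp, and the summit lay far to one side, 0.75 of the way from the centre to the right end. This was the only one of the 5 whose nearest interval was broad and tall, 5262 bp wide with a height of 26, at a distance of 126 kb. The peaks on chromosome 5 (147072232 to 147073060, height 115 over 829 bp) and chromosome 19 (61275151 to 61275932, height 114 over 782 bp) had their nearest intervals at 38.7 and 25.6 kb, with heights of 12 and 14. None of these 5 had another interval within 10 kb. Whether the input library also had signal at these or the other named positions was not examined.

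Of the next 5 in height, 1 was much narrower than the rest. Chromosome 19 held a height of 60 over 2197 bp at 3767165 to 3769361, and chromosome 3 a height of 57 over 2359 bp at 96360802 to 96363160. The exception, on chromosome 16 (57391494 to 57392023), reached 58 over only 530 bp, or 109 per kb, and its nearest interval was 224 kb away with a height of 14. A height of 56 over 1634 bp was listed on chromosome 10 at 79131373 to 79133006, with another interval 11.1 kb away. The last of the 10 was an X chromosome peak of height 55 over 1717 bp at 166434673 to 166436389, which had a second member of height 53 only 374 bp from it.

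At the height limit, intervals on either side were alike in width. The 104 members of height 25 had a median width of 1376 bp, and the 136 compact intervals of height 24 a median of 1378 bp. Their median gaps to the nearest other interval were 36.1 and 31.99 kb. Just inside, in genome order, were intervals on chromosome 1 starting at 36364369, 108655295, 129670280, 154749942 and 179725762, with widths of 1057 to 1649 bp. Just outside were intervals on chromosome 1 starting at 10027562, 95374458, 130255681, 135557617 and 173318442, with widths of 796 to 1832 bp. At the width limit, the widest member measured 2499 bp and the narrowest broad interval with a height of at least 25 measured 2508 bp. The limits therefore cut through a continuous distribution and do not separate a distinct class. Only the 5 tallest stood apart from the other members, in height, a value that chose them. The greatest height of the whole list, 278, was in a broad interval.

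Members were wider than the lower compact peaks although both sets lay under 2500 bp. Their widths had a median of 1586 bp and quartiles of 1270 and 1958 bp, against 1079 bp in the lower set, with quartiles of 869 and 1377 bp. The share of compact intervals that were tall was 0.783% below 750 bp (7 of 894) and 30.1% from 2250 to 2499 bp (49 of 163), and it was higher in each wider band of 250 bp between them. Only 47 of the 603 members were narrower than 1 kb. The 5 narrowest measured 452 bp (chromosome X, 166444760 to 166445211, height 26), 457 bp (the chromosome 3 peak of height 147), 514 bp (chromosome X, 84483567 to 84484080, height 27), 530 bp (the chromosome 16 peak of height 58) and 602 bp (chromosome 13, 23665888 to 23666489, height 26). Among these 5 were 2 of the 5 members of chromosome X.

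Within the interval, summits of tall compact peaks were placed much like those of lower ones over all widths, but nearer the centre at matched width. The distance of the summit from the centre, as a fraction of the distance from centre to end, had a median of 0.21 in the members (95% interval of the median 0.19 to 0.23) and 0.20 in the lower set (0.19 to 0.20). It was 0.35 in the broad intervals (0.32 to 0.38). The summit lay left of the centre in 296 of 603 members (49.1%; 45.03 to 53.2%), so neither side was preferred beyond counting error. At matched width the median was lower in the members. Below 1000 bp it was 0.12 in 47 members and 0.13 in 2914 lower peaks, and between 1000 and 1999 bp 0.22 in 421 and 0.24 in 3892. Between 2000 and 2499 bp the medians were further apart, 0.22 in 135 members and 0.34 in 329 lower peaks. No test of these differences could be made.

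All 19 autosomes and chromosome X held members, in shares close to that of the whole list. The share of compact intervals that were tall ranged over the autosomes from 5.98% on chromosome 16 (15 of 251; 95% interval 3.38 to 9.67%) to 10.5% on chromosome 18 (20 of 191; 6.51 to 15.7%). The interval of each of the 19 autosomes held the share of 7.79% found over all compact intervals. Chromosome 11 had the most members, 70 of 603 (11.6%; 9.16 to 14.4%), and also 9.71% of the lower compact peaks. The median height of members per autosome ran from 26 to 29. On chromosome X, 5 of 77 compact intervals were tall (6.49%; 2.14 to 14.5%), and the single interval of chromosome Y was not. No chromosome stood apart in its share of tall peaks beyond counting error.

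**Figure D2:**
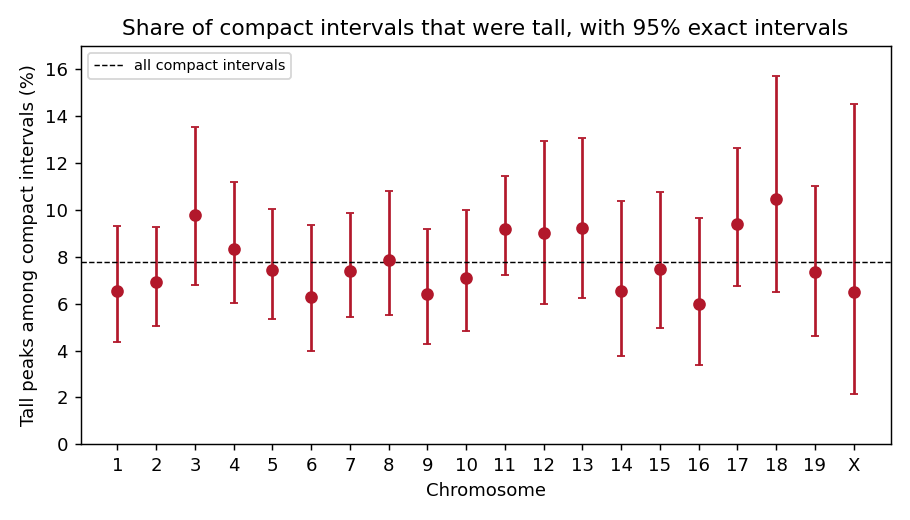
Points give, per chromosome, the percentage of intervals under 2500 bp that had a height of at least 25, with 95% exact binomial intervals. The dashed line marks 7.79%, the share over all compact intervals, and each interval drawn crosses it.

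Of the 5 X chromosome members, 3 were close together near the distal end of the listed signal on that chromosome. These were the pair at 166434673 to 166436389 and 166436764 to 166437818, with heights of 55 and 53, and the peak at 166444760 to 166445211 with a height of 26. The other 2, at 84483567 to 84484080 (height 27) and 99384105 to 99384933 (height 26), were among the isolated ones, with the nearest interval 1461 and 548 kb away.

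Tall and lower compact peaks had nearly equal shares with another interval within 10 kb. The share within 1 kb was lower for the tall ones over all widths, and also below 1000 bp, from 1000 to 1999 bp and from 2000 to 2499 bp. In bands of 250 bp it was not lower throughout. At 1000 to 1249 bp it was 12.1% of 91 members and 11.9% of 1764 lower peaks. Below 750 bp it was higher in the members, 28.6% of only 7 against 22.2% of 887. In the remaining bands it was lower. The 95% intervals of the sets overlapped in each of these bands and when distances were taken from summit to summit. They stayed separate with a height limit of 30 and with a width limit of 1500 bp. Overlap of intervals does not measure the difference between shares, which was not tested. The gap from interval end to interval start had a median of 25.4 kb in the members (95% interval of the median 20.6 to 29.1 kb) and 25.4 kb in the lower set (23.7 to 26.6 kb). Another interval lay within 10 kb of 196 of 603 members (32.5%; 28.8 to 36.4%) and of 2333 of 7135 lower peaks (32.7%; 31.6 to 33.8%). Within 1 kb it was 56 members (9.29%; 7.09 to 11.9%) against 1022 lower peaks (14.3%; 13.5 to 15.2%). Between 1 and 10 kb the order was the other way round, 23.2% of members (19.9 to 26.8%) against 18.4% (17.5 to 19.3%). That share is what remains of the share within 10 kb without the share within 1 kb. Its order follows from those shares and is not a separate result. The broad intervals were unlike both, with another interval within 10 kb in 67.1% (62.3 to 71.6%) and a median gap of 3.23 kb. In the plot of gap sizes the curves of the compact sets run close together from 10 kb upwards, and that of the broad intervals lies above them.

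**Figure D3:**
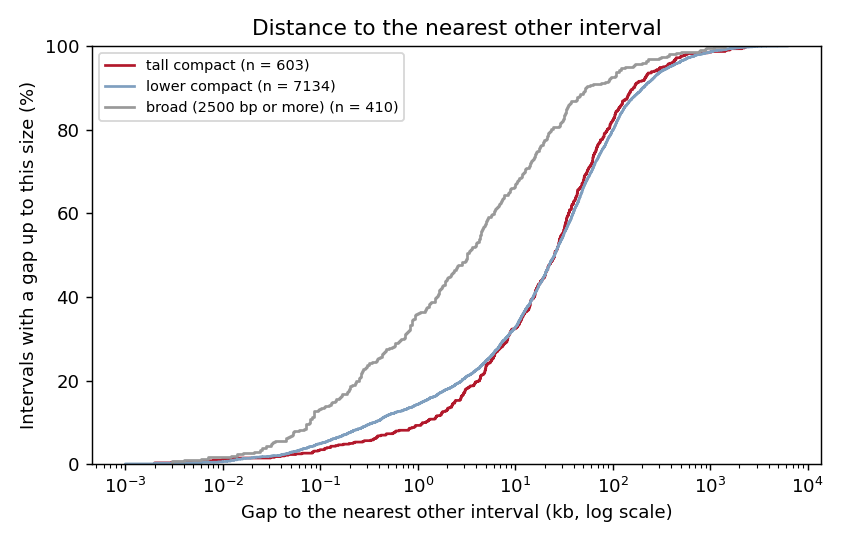
Curves give the cumulative percentage of intervals whose nearest other interval on the chromosome lies within the gap on the x axis (kb, log scale), for tall compact, lower compact and broad intervals. At 10 kb the curves stand at 32.5, 32.7 and 67.1%.

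Within the lower set itself, the share at 1 kb declined with height. Among compact peaks of height 8 to 10, 22.6% had another interval within 1 kb (19.005 to 26.5%), and at 23 to 24 the share was 7.79% (5.06 to 11.4%). Members of height 25 to 27, at 8.45% (5.49 to 12.3%), were close to the latter. In the taller bands the share was 14.96% at 28 to 30 (19 of 127), 3.77% at 31 to 35 (4 of 106) and 11.1% at 36 to 60 (9 of 81), with wide intervals and no steady trend. Against lower peaks of height 15 to 24 only, a choice made after seeing the data, the member share of 9.29% was within counting error of 10.6% (9.58 to 11.6%), while the share within 10 kb was 32.5% against 28.2% (26.7 to 29.7%), with overlapping intervals. Without the lowest peaks of the list, the shares of the compact sets at 1 kb therefore lay within counting error of each other.

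**Figure D4:**
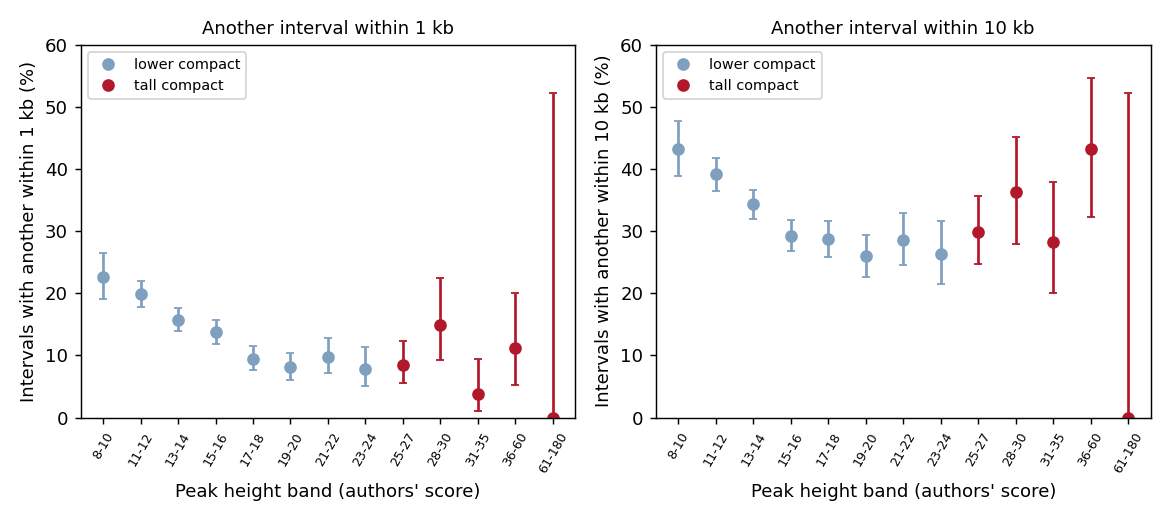
Points give the percentage of compact intervals with another interval within 1 kb (left) and within 10 kb (right) per band of height (the authors' score), with 95% exact binomial intervals. Both shares decline over the lower bands, from 22.6 to 7.79% at 1 kb and from 43.2 to 26.3% at 10 kb, and the bands of tall peaks scatter without a steady direction.

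At matched width, the sets were furthest apart among the widest compact intervals. Among intervals of 2000 to 2499 bp, 35.6% of 135 members (27.5 to 44.2%) and 49.5% of 329 lower peaks (44.01 to 55.1%) had another interval within 10 kb. Within 1 kb the shares were 9.63% (5.23 to 15.9%) and 19.1% (15.04 to 23.8%). Both pairs of intervals overlap slightly, but such an overlap does not measure the difference between the shares, which was not tested. Within 1 kb the shares were 9.26% (6.67 to 12.4%) and 11.97% (10.97 to 13.03%) between 1000 and 1999 bp, and 8.51% (2.37 to 20.4%) and 16.9% (15.6 to 18.3%) below 1000 bp, with overlapping intervals in each band. In the middle band, the shares within 10 kb were 32.3% of 421 members (27.9 to 37.003%) and 30.5% of 3892 lower peaks (29.1 to 31.97%). Below 1000 bp they were 25.5% of 47 members (13.9 to 40.3%) and 33.7% of 2914 lower peaks (32.02 to 35.5%), a difference not detectable with 47 members.

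**Figure D5:**
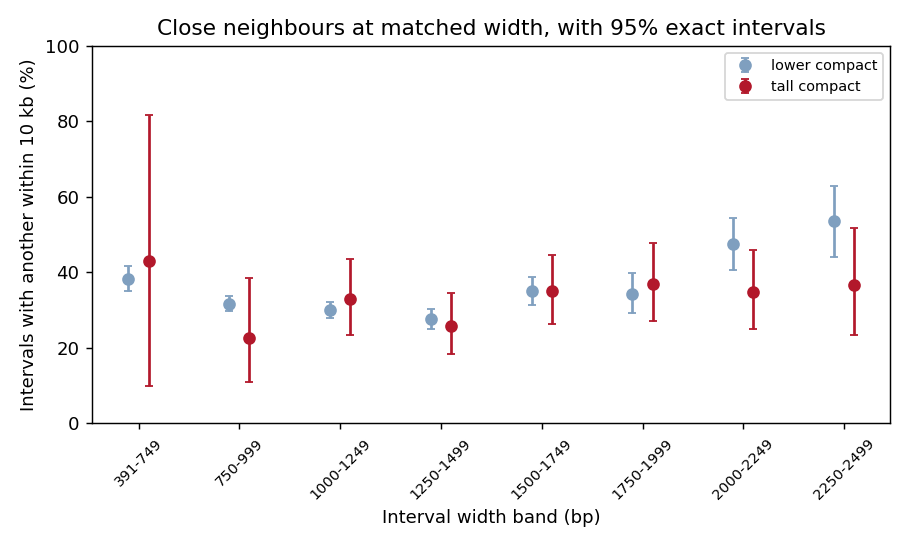
Points give the percentage of tall compact and lower compact intervals with another interval within 10 kb per band of width (bp), with 95% exact binomial intervals. In the widest band, 2250 to 2499 bp, 36.7% of the tall and 53.5% of the lower peaks had such a neighbour.

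Heights of neighbours were nearly the same whether the peak itself was tall or low. The nearest other interval of a member had a median height of 16 (95% interval of the median 15 to 16), and that of a lower compact peak 15. It reached a height of 25 for 64 members (10.6%; 8.27 to 13.4%) and for 677 lower peaks (9.49%; 8.82 to 10.2%), against 9.34% of all 8148 intervals. A broad interval was the nearest for 5.47% of members and 5.42% of lower peaks. Where a member had an interval within 1 kb, that neighbour was lower in 52 of 56 cases, with medians of 13 in height and 995 bp in width. Since members were chosen for height, a lower neighbour is what the rule favours.

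Members were 7.40% of all intervals, and the spacing between them is given as a description. Of 583 pairs of members that follow each other on a chromosome, the median gap was 1.31 Mb, 82 pairs were within 100 kb, 17 within 10 kb and 2 within 1 kb. The closest pair lay on chromosome 5, where intervals of height 30 (149862158 to 149863855) and height 29 (149863984 to 149865258) were 128 bp apart. The second was the X chromosome pair of heights 55 and 53. In 45 of the 583 pairs (7.72%) no other interval lay between the 2 members, a share near the 7.40% of all intervals that were members. Another member lay within 100 kb of 147 members (24.4%), and none within 1 Mb of 219 (36.3%).

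Gene names aside, the stretches with most members can be given by position. Of 2249 windows of 500 kb with any interval, 480 held a member, 391 of them exactly 1, and 7 held 4 or more. Chromosome 13 at 23500001 to 24000000 had 5 members among 30 intervals, with heights of 25, 26, 26, 27 and 32 and widths from 602 to 2403 bp. Chromosome 17 at 35000001 to 35500000 had 5 members among 26, with heights of 26, 26, 26, 31 and 41. Fewer intervals lay in the window of chromosome 2 at 179500001 to 180000000, where 4 of 6 were members. On chromosome 12 at 111500001 to 112000000, 4 of 8 were members. The other windows with 4 members held 17, 18 and 23 intervals. All of these windows were picked for their number of members, and members were 7.40% of all intervals. Windows with 10 or more intervals held 25.9% of the members (22.4 to 29.6%) and 25.5% of the lower peaks (24.5 to 26.5%), against 47.1% of the broad intervals (42.2 to 52.03%). Of the 148 such windows 58 had no member. The shares of tall and lower compact peaks in crowded windows thus lay within counting error of each other.

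The most isolated members lay megabases from any other interval. On chromosome 2, a peak of height 53 over 1625 bp at 98506253 to 98507877 was 2883 kb from its nearest interval, which had a height of 13. It was the only one of the 5 most isolated with a height above 27. The others lay on chromosome 10 at 105277888 to 105279082 (height 25, nearest at 2319 kb), chromosome 2 at 136716502 to 136718202 (height 25, 2246 kb), chromosome 1 at 84834893 to 84836942 (height 27, 2113 kb) and chromosome 3 at 28704057 to 28705061 (height 27, 1622 kb). A gap above 1 Mb was seen for 9 members (1.49%; 0.685 to 2.81%) and 103 lower peaks (1.44%; 1.18 to 1.75%).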

How the data were processed

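Per the submitters' processing notes, BWA 0.6.1, SICER 1.1 and MACS were used, with no role given, and the builds hg19 and mm9 are named. Chromosome names were those of the mouse. For read filters, the calling threshold and use of the input, the settings are not given in the sources used. The authors deposited a summit track with a score per peak and an interval track with positions in bp, per the file headers. The score is called height. Tracks were joined by row order, and 8148 of 8148 summits lay inside their interval. Starts were converted to count from 1, and summits kept as written. Of the member summits, 85.2% were multiples of 32 bp, so most were written on a grid of that step. How closely they mark the strongest signal is not known.

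Members and lists were chosen with earlier results of these data known. Peaks named are the 10 tallest, the 5 narrowest and 5 most isolated members, the 5 on each side of the height limit in genome order, and pairs of members under 1 kb apart; the windows, the X chromosome members and the closer look at widths were chosen after their values were seen. Shares carry 95% Clopper-Pearson intervals and medians binomial order-statistic intervals; both treat peaks as independent. Gap calculations were tested on 2000 simulated intervals. Python 3.11.15, numpy 2.4.6, pandas 2.3.3 and scipy 1.17.1 were used. Planned results on transcription starts, GC and CpG content, motifs, repeats, gene lists and cell type markers could not be computed without a genome and annotation of mm9, which were not used here.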

Additional observations from a re-analysis of the deposited data

How the results depend on the processing

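Members numbered 220 with a height limit of 30, 262 with a width limit of 1500 bp and 560 after merging intervals within 1 kb. The share with another interval within 10 kb was 28.2% under the width limit and 25.9% after merging (lower compact peaks 31.4 and 21.7%), and 9.29 and 82.3% when counted within 1 and 100 kb. The median gap was 33.4 kb under the width limit and 29.2 kb after merging (lower compact peaks 26.5 and 34.7 kb), so the order of the sets turned with the setting. Under the width limit the median summit offset was 0.17 and chromosome 11 held 8.78% of the members. Counted from summit to summit, an alternative chosen after seeing the data, 1.99% of members (1.03 to 3.45%) and 3.77% of lower peaks (3.34 to 4.24%) had another within 1 kb, so the intervals, separate for gaps between interval ends, overlapped. For gaps between interval ends, the shares within 1 kb stayed separate with the height limit of 30, 7.73% of members (4.57 to 12.1%) against 14.1% (13.3 to 14.9%). They were also separate with the width limit of 1500 bp, 8.40% (5.34 to 12.4%) against 14.2% (13.3 to 15.1%). Neither share was planned under these limits. Leaving out the 5 tallest moved none of the member values beyond their intervals. Merging removes close pairs and the width limit removes wide intervals by construction; the cause of the other shifts was not tested. Alternatives for starts, composition, motifs and repeats were not run. With 1 KLF4 library, no analysis paired across replicates was possible and no replicate could be left out. A comparison with the input library was not made. With depth and calling threshold unknown, a region missing from the list may have lain below the threshold.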

Other observations

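The summit grid differed with height. Summits lay on multiples of 32 bp in 85.2% of the tall compact peaks (82.2 to 87.98%) and 74.2% of the lower ones (73.2 to 75.2%). They lay off both that grid and the positions 16 bp from it in 3 of 603 members (0.498%) and in 458 of 7135 lower peaks (6.42%). Within the lower set the share on the grid was 58.4% at heights of 8 to 10 and 81.5% at 23 to 24. How the summits were placed is not given in the sources used here, and the source of the difference was not tested.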
